A study of Mus musculus with 6 samples.

Results

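Amino acid and peptide transporter genes were followed in the renal cortex of mice on one-colour Agilent arrays. The members were 42 named solute carrier genes, taken as every probe outside the controls whose gene name in the scanner files was on that list. They had 83 of the 56605 probes and were 42 of the 37074 named genes on the array. Of these, 39 members had at least 1 probe that the scanner software called well above background on each of the 3 arrays of at least 1 group, and these were tested. All 42 had at least 1 probe whose accession was matched in the RefSeq gene table, and where a member had several tested probes the brightest stood for the gene. The probe that stood for Slc15a1, Slc36a2, Slc6a20a and Slc38a9 was not a matched one.

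The renal proximal tubule takes back nearly all amino acids and small peptides that the glomerulus filters. Sodium-coupled carriers and exchangers of the brush border bring them into the cell, and exchangers and facilitated carriers of the basolateral membrane pass them to the blood. Several of these carriers are pairs of a heavy chain and a light chain, and inherited loss of single members gives disorders such as cystinuria, Hartnup disorder and lysinuric protein intolerance.

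The labels named 2 groups of 3 male mice aged 16 weeks, db/m and db/db, with 1 array per mouse. Mice with the db/db genotype lack the long leptin receptor and become obese and diabetic, and db/m mice carry 1 mutant copy. The text deposited with the arrays and the methods of the study describe a different pair of groups, db/db mice given the herbal Huangqi decoction (HQD) for 8 weeks and untreated db/db mice, and no dose is named for these arrays. The label names were kept here, written labelled db/m and labelled db/db, and genotype and HQD cannot be told apart as what separates the groups. The mutation is in every cell of the body, and the cortex was taken as a piece of tissue, so that every value is an average over its cell types. The leptin receptor gene Lepr did not settle the labels: 1 of its 6 probes could be tested, and it differed by 0.42 (log2), which did not pass an unadjusted p under 0.05.

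Each value below is a relative signal, the log2 intensity of a probe minus the 75th percentile of its array, and a difference is the mean of labelled db/m less that of labelled db/db. Values are listed for replicates 1, 2 and 3. The p-values came from limma fitted to all 29890 tested probes, and an adjusted p is one after the Benjamini-Hochberg procedure over all of them. They measure the spread between mice of this series. Of the 3 slides, slide 1 held replicate 1 of labelled db/m with replicate 3 of labelled db/db, and the other 2 slides each held 2 arrays of 1 group. The slide 1 pair is therefore the only comparison of the groups within a slide, and it is also the whole difference of a fit with the slide as a block. No probe was saturated, and 51.6% to 59.1% of probes were well above background on each array.

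Of the 39 tested members, 25 had a negative and 14 a positive difference. At an unadjusted p under 0.05, 8 members were lower, against 10.8% of all tested probes, and 2 were higher, against 6.9%. Over the brightest probe of every named gene the shares were 9.18% and 6.67%. The lower members were Slc6a19, Slc7a9, Slc3a1, Slc7a7, Slc38a3, Slc6a13, Slc1a2 and Slc7a2, and the higher ones were Slc7a3 and Slc38a9. All 3 labelled db/m arrays lay below all 3 labelled db/db arrays for 7 members, where 16.4% of all tested probes did so, and above them for 2 members, where 7.75% did so, and per named gene these shares were 15% and 7.24%. Slc7a3 entered the test only through labelled db/m, the group in which it was higher, and the other 38 were well above background on all 6 arrays. The median difference over the 39 members was -0.17, and that over all tested probes was -0.03. In pieces of tissue, fewer cells of a type and less RNA per cell cannot be told apart.

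No member passed an adjusted p under 0.05 in limma, and no other probe of the array did. The smallest adjusted p among members was 0.24. Only Slc6a19 also passed the study's screen of a 2-fold change with an unadjusted p under 0.05, which 0.96% of tested probes and 1.05% of named genes passed. With replicate 2 of labelled db/db left out, 3 members were lower at an unadjusted p under 0.05. With replicate 3 of labelled db/m left out there were 4, and with replicate 2 of labelled db/m left out there were 13. The higher members numbered 1 to 5 when 1 array was left out. Shares over all probes were not counted for these settings. With the slide as a block, Slc6a19, Slc7a9, Slc7a7 and Slc7a3 still passed an unadjusted p under 0.05, and the other 6 did not. With replicate 2 of labelled db/m left out, Slc6a19 and Slc1a3 passed an adjusted p under 0.05. Slc1a3 was not tested with all 6 arrays. It entered there only through the 2 remaining labelled db/m arrays, the group in which it was higher.

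The differences of the whole array varied with brightness, with a median of -0.14 in the brightest 25% of tested probes against 0.16 in the dimmest 25%. Of the tested members, 20 were in the brightest class, and their median difference was -0.20. In that class 15.1% of probes were lower and 1.85% higher at an unadjusted p under 0.05, and 5 and 1 of the 20 members were. The higher member was Slc38a9, whose tested probes gave opposite directions, as described further on. The groups did not overlap for 26.4% of the probes of that class with labelled db/m lower and for 3.2% with labelled db/m higher, while 0.147% passed the screen.

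**Figure D1:**
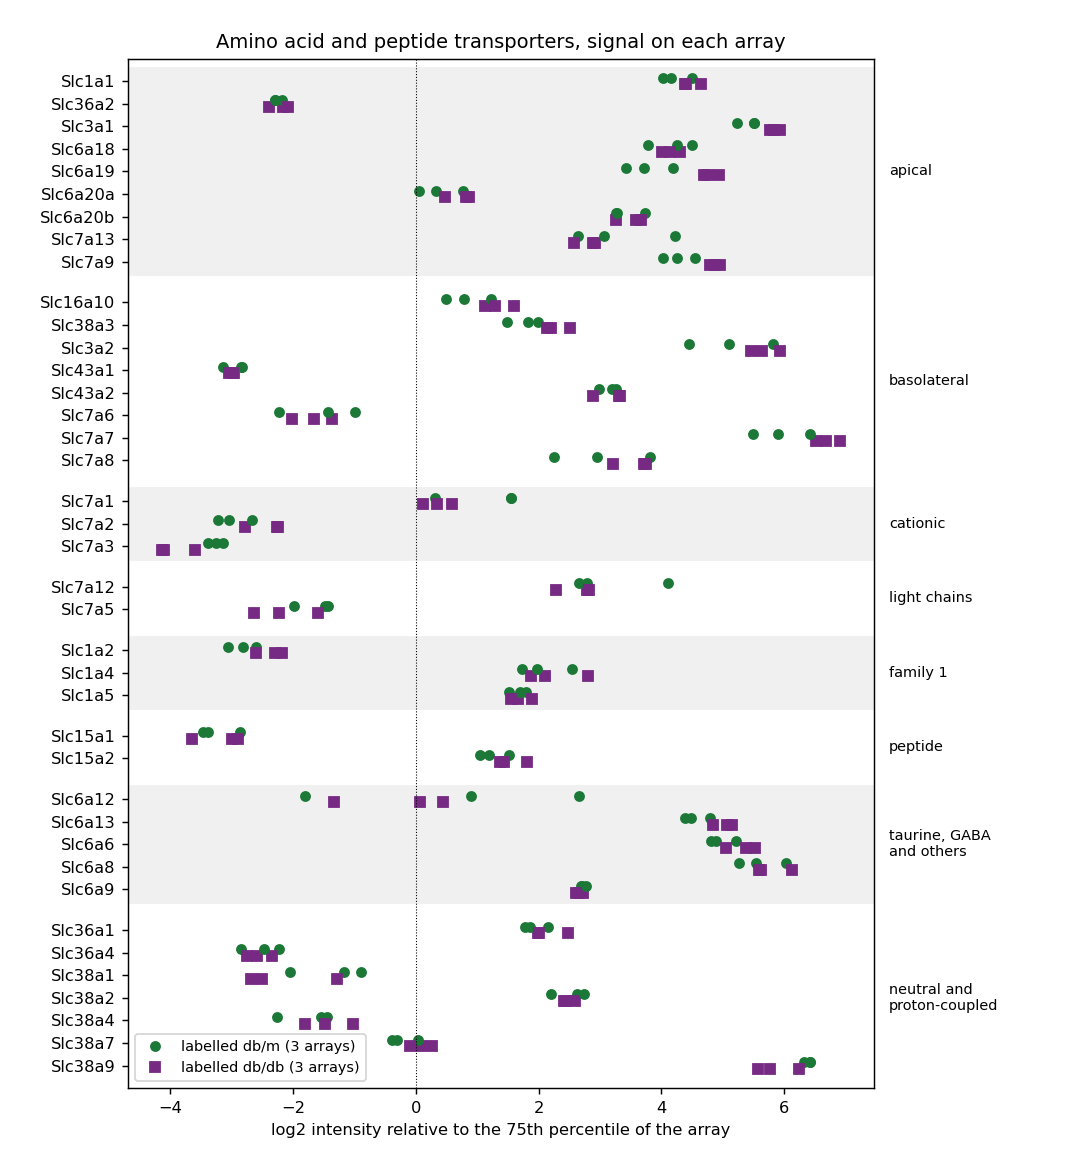
Relative signal (log2 intensity minus the 75th percentile of the array, x axis) of the brightest tested probe of 39 transporter genes, ordered by role; each circle is 1 labelled db/m array and each square 1 labelled db/db array. The groups are apart for Slc6a19, Slc7a9, Slc3a1 and Slc7a7, and labelled db/m replicate 1 stands to the right of the other 5 arrays for Slc7a13, Slc7a12 and Slc6a12.

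**Figure D2:**
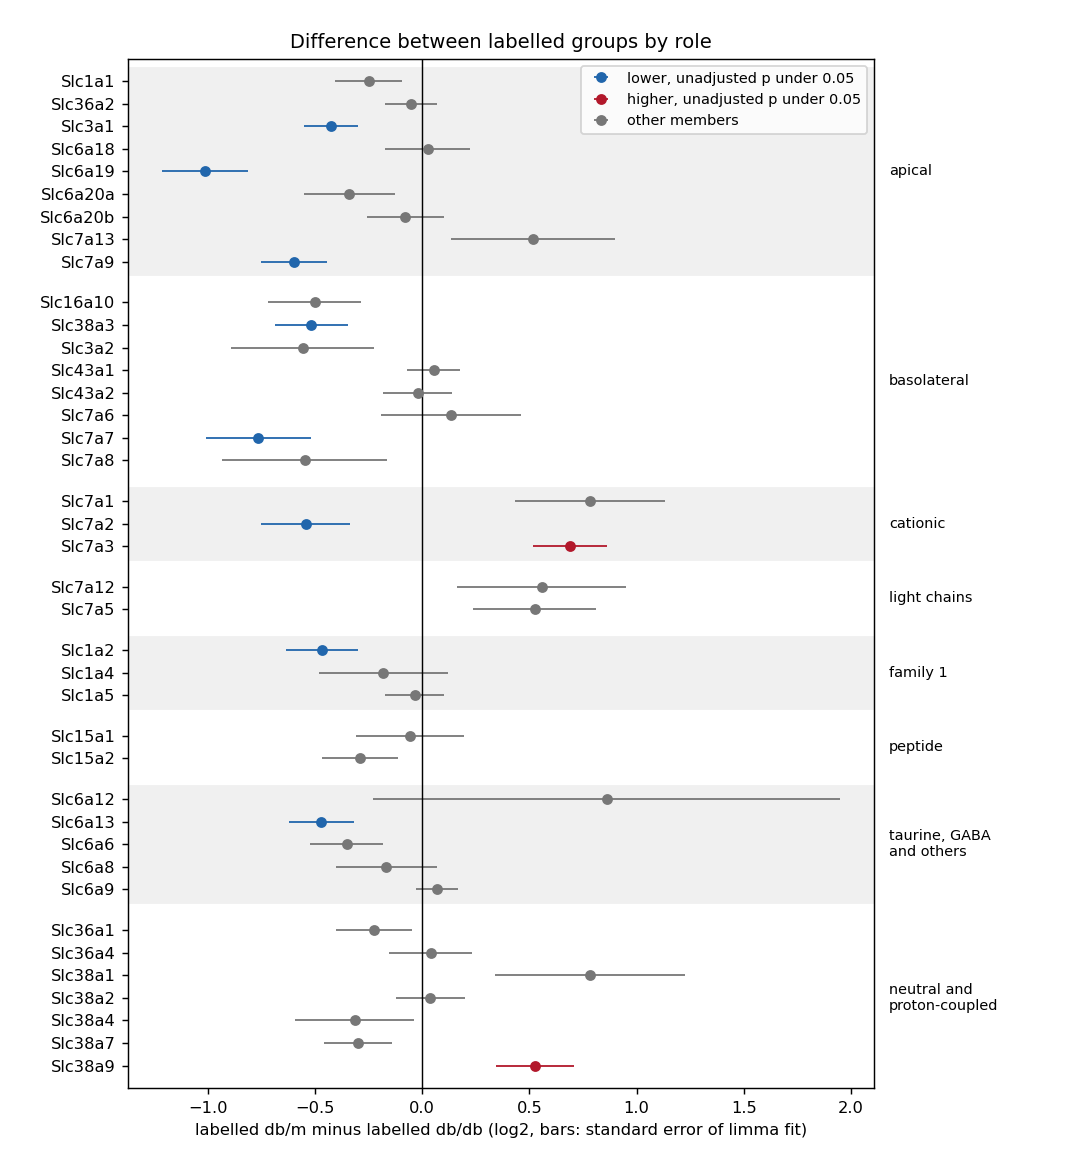
Difference of labelled db/m minus labelled db/db (log2, x axis) of the same 39 genes, with bars of 1 standard error of the limma fit; blue and red points passed an unadjusted p under 0.05. Most apical and basolateral carriers lie below 0, and Slc6a19 has the lowest value of all, -1.01.

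The apical carriers of the proximal tubule comprised 9 genes, all tested, of which 7 had a negative and 2 a positive difference, with a median of -0.25. The genes Slc6a19, Slc7a9 and Slc3a1 were lower at an unadjusted p under 0.05, with groups that did not overlap. Sequences are shown here for the members the results turn on. The 60-base probes of Slc7a9 and Slc3a1, with those of Slc6a18 and Slc6a6 that are described further on, are written from 5′ to 3′ as the scanner files give them.
Slc7a9, brightest probe: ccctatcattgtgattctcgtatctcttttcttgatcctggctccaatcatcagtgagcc
Slc7a9, second probe: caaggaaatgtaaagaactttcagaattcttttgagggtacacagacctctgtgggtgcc
Slc3a1: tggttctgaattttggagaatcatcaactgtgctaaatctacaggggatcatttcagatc
Slc6a18, second probe: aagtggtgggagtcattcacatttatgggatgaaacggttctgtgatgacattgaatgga
Slc6a6, second probe: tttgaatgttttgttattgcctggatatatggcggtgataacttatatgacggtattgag

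On the mm9 build of the scanner files, the brightest Slc7a9 probe lay at chr7:36248629-36248688 on the plus strand. The second Slc7a9 probe ran over 438 bases of the genome, at chr7:36239195-36239632, so that its 60 bases join 2 exons. The second probes of Slc6a18, at chr13:73803125-73803795 on the minus strand, and of Slc6a6, at chr6:91699793-91700295 on the plus strand, also cross an intron. The Slc3a1 probe lay at chr17:85463142-85463201 on the plus strand. All 5 held at least 1 forward reading frame without a stop codon.

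The promoters of the 3 apical genes are shown because all 3 passed an unadjusted p under 0.05 in the same direction. The 250 bases before the start of each gene were taken from RefSeq on the GRCm38.p6 build and are written on the strand of the gene. Slc7a9 has 2 entries in that table and the first is shown. Capitals mark the letters CAAAGTCCA, the element bound by the hepatocyte nuclear factor HNF4.
Slc6a19, chr13:73692637-73692886, minus strand: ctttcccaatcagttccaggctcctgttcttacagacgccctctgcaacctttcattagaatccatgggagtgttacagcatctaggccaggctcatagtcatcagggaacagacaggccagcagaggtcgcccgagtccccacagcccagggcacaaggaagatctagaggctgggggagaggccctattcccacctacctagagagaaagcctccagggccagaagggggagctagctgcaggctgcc
Slc7a9, chr7:35448842-35449091, plus strand: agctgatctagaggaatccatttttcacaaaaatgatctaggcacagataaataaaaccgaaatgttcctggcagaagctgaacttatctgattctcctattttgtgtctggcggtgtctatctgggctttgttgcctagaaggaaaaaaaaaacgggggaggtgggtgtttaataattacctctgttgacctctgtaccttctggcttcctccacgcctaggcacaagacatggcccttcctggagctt
Slc3a1, chr17:85028097-85028346, plus strand: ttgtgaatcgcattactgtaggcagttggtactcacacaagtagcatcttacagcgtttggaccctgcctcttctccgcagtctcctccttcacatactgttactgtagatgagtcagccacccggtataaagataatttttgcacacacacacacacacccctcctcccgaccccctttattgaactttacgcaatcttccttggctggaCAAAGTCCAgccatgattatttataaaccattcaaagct

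Of 32851 such windows, 0.384% held CAAAGTCCA on either strand, and among the 30 members with an entry only Slc3a1 did. The short site GTTAAT of the factor HNF1 was in 6.43% of windows and in those of Slc16a10, Slc36a1, Slc6a13, Slc6a20a and Slc7a7. The amino acid response element TGATGNAAT was in 0.816% of all windows and in that of no member. The 30 members had 48 windows, so that a count of members and a share of windows are unlike measures. These matches describe letters only.

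Slc6a19, the main sodium-coupled carrier of neutral amino acids in the brush border, had relative signals of 3.43, 4.18 and 3.72 in labelled db/m and 4.69, 4.93 and 4.76 in labelled db/db. Every labelled db/m array was below every labelled db/db array. The difference was -1.01 ± 0.20 (standard error, adjusted p = 0.24), a 2.02-fold higher signal in labelled db/db. The slide 1 pair gave -1.33. Its probe lay at chr13:73818718-73818777 on the minus strand (mm9), and its difference kept its direction under each of the 19 alternatives that were run. It also kept an unadjusted p under 0.05, leaving aside the setting with a single labelled db/m array, where no p-value is read.

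Slc7a9, the light chain of the apical exchanger for cystine and dibasic amino acids, had relative signals of 4.03, 4.55 and 4.25 in labelled db/m and 4.79, 4.96 and 4.88 in labelled db/db. The difference was -0.60 ± 0.15 (adjusted p = 0.24). The second probe, which crosses an exon junction, gave 0.64, 1.11 and 0.75 against 1.60, 1.60 and 1.57, a difference of -0.75 that passed an unadjusted p under 0.05 (adjusted p = 0.24). The groups were apart on both probes, and the slide 1 pair of the brightest probe gave -0.85.

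Slc3a1, the heavy chain that carries Slc7a9 to the membrane, had relative signals of 5.52, 5.51 and 5.23 in labelled db/m and 5.94, 5.84 and 5.76 in labelled db/db. The groups did not overlap. The difference was -0.43 ± 0.13 (adjusted p = 0.24), and it was -0.25 on slide 1, which did not pass an unadjusted p under 0.05 when the slide was a block. Nor did it pass in the deposited value table, at -0.23 (adjusted p = 0.355), or after quantile normalization, at -0.24 (adjusted p = 0.348). The spread within each group was narrow for Slc3a1, and the fold was 1.34.

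Slc7a13, a light chain for aspartate, glutamate and cystine that also pairs with Slc3a1 in the last segment of the proximal tubule, had another pattern by array. Its relative signals were 4.21, 2.64 and 3.06 in labelled db/m and 2.88, 2.92 and 2.58 in labelled db/db. Labelled db/m replicate 1 was far above the other arrays and the groups overlapped. The difference was 0.51 ± 0.38 (adjusted p = 0.471), and 1.64 in the fit that had the slide as a block, where it passed an unadjusted p under 0.05 (adjusted p = 0.378). Within an array, the signal of Slc7a13 relative to that of Slc3a1 changed by 0.94, with groups only just apart (exact permutation test, p = 0.1, and 0.35 after Benjamini-Hochberg over 7 pairs). Centred on the mean of the arrays, the lowest labelled db/m value was -0.286 and the highest labelled db/db value -0.341.

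Slc6a18, the carrier of neutral amino acids whose gene lies next to Slc6a19, had relative signals of 4.50, 4.25 and 3.78 in labelled db/m and 4.30, 4.01 and 4.15 in labelled db/db. The groups overlapped and the difference was 0.03 ± 0.20 (adjusted p = 0.95). The exon junction probe of Slc6a18 gave -0.14 (adjusted p = 0.635). The signal of Slc6a19 relative to that of Slc6a18 within an array changed by -1.04 and did not overlap between the groups. The exact permutation test gave p = 0.1, the smallest that 3 against 3 arrays allow. After Benjamini-Hochberg over 7 chosen pairs of neighbours or partner chains it was 0.35. Not every pair of neighbouring members was among the 7, and Slc38a1 with Slc38a2 was left out. In the remaining 5 of the 7 pairs, such as Slc7a9 with Slc3a1, the groups overlapped.

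The twin genes Slc6a20a and Slc6a20b encode carriers of proline and other imino acids, and no probe of one shared a run of more than 8 bases with a probe of the other. Slc6a20a had relative signals of 0.77, 0.33 and 0.05 in labelled db/m and 0.87, 0.82 and 0.47 in labelled db/db, with a difference of -0.34 ± 0.21 (adjusted p = 0.401), and 0.30 for the slide 1 pair, which turned the direction. Slc6a20b had 3.27, 3.74 and 3.28 against 3.26, 3.66 and 3.59, a difference of -0.08 ± 0.18 (adjusted p = 0.823). A second probe of Slc6a20b gave 2.76, 3.12 and 2.68 against 3.27, 3.34 and 3.22, with groups that did not overlap and a difference of -0.42 that passed an unadjusted p under 0.05 (adjusted p = 0.245). The 2 probes of Slc6a20b gave different calls.

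Slc1a1, the apical carrier of glutamate and aspartate, had relative signals of 4.16, 4.50 and 4.03 in labelled db/m and 4.38, 4.65 and 4.41 in labelled db/db. The difference was -0.25 ± 0.16 (adjusted p = 0.406). On its second probe the groups were apart, 2.92, 3.12 and 2.73 against 3.21, 3.40 and 3.17, with a difference of -0.34 that passed an unadjusted p under 0.05 (adjusted p = 0.279). The last apical member, Slc36a2, a proton-coupled carrier of glycine and proline, differed by -0.05 on a probe without a RefSeq match. Its probe with a RefSeq accession was well above background on no array.

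The basolateral exchangers and exit carriers comprised 8 genes, all tested, of which 6 had a negative and 2 a positive difference, with a median of -0.51. Slc7a7 and Slc38a3 were lower at an unadjusted p under 0.05. Slc7a7, the light chain that lets dibasic amino acids out of the cell and is lost in lysinuric protein intolerance, had relative signals of 5.48, 6.42 and 5.91 in labelled db/m and 6.52, 6.91 and 6.68 in labelled db/db. The highest labelled db/m array was just below the lowest labelled db/db array. Its probe lay at chr14:54989166-54989225 on the minus strand (mm9). The difference was -0.77 ± 0.25 (adjusted p = 0.24), the slide 1 pair gave -1.20, and without labelled db/db replicate 2, or by the methods' t-test, it no longer passed an unadjusted p under 0.05.

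Slc38a3, a glutamine carrier that supplies the ammonia production of the tubule, had relative signals of 1.83, 1.99 and 1.48 in labelled db/m and 2.21, 2.51 and 2.14 in labelled db/db. The groups did not overlap, and the difference was -0.52 ± 0.17 (adjusted p = 0.245). It did not pass an unadjusted p under 0.05 when replicate 2 of labelled db/db or replicate 3 of labelled db/m was left out, or by the methods' t-test. The slide 1 pair gave -0.31, and the probe lay at chr9:107553825-107553884 on the minus strand (mm9).

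Slc3a2, the heavy chain of Slc7a7 and Slc7a8, had relative signals of 4.46, 5.81 and 5.10 in labelled db/m and 5.46, 5.94 and 5.64 in labelled db/db. Labelled db/m replicate 2 lay among the labelled db/db arrays, and the difference was -0.56 ± 0.33 (adjusted p = 0.388). Slc7a8, the exchanger of neutral amino acids, had 2.25, 3.82 and 2.96 against 3.21, 3.74 and 3.72, a difference of -0.55 ± 0.39 (adjusted p = 0.449). On slide 1 both gave a lower labelled db/m array and passed an unadjusted p under 0.05 with the slide as a block, Slc3a2 at -1.19 (adjusted p = 0.509) and Slc7a8 at -1.46 (adjusted p = 0.508).

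Slc16a10, the exit carrier of aromatic amino acids, differed by -0.50 ± 0.22 (adjusted p = 0.288) on its brightest probe, where the groups overlapped. On its other 2 probes they did not, and both passed an unadjusted p under 0.05, with differences of -0.62 (adjusted p = 0.242) and -0.60 (adjusted p = 0.24). The facilitated carriers of large neutral amino acids Slc43a1 and Slc43a2 and the light chain Slc7a6 differed by 0.05, -0.02 and 0.13.

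The cationic amino acid carriers comprised 3 genes, of which 1 was higher and 1 was lower at an unadjusted p under 0.05. Slc7a3 had relative signals of -3.25, -3.14 and -3.39 in labelled db/m and -3.60, -4.14 and -4.10 in labelled db/db, a difference of 0.69 ± 0.17 (adjusted p = 0.24). It was well above background on 3 labelled db/m arrays and on 1 labelled db/db array, so that the lower level was near the limit of the array. After normexp background correction the difference was 0.26 and no longer passed an unadjusted p under 0.05 (adjusted p = 0.324). Slc7a2 had -3.04, -2.68 and -3.23 against -2.79, -2.27 and -2.25, a difference of -0.54 ± 0.21 (adjusted p = 0.265) with groups that overlapped. Slc7a2 did not pass an unadjusted p under 0.05 when replicate 1 or 3 of labelled db/m or replicate 2 or 3 of labelled db/db was left out.

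Slc7a1, the general carrier of arginine and lysine, is described because of its pattern by array, which was chosen after its values were seen. It had relative signals of 1.55, 0.30 and 1.55 in labelled db/m and 0.59, 0.12 and 0.35 in labelled db/db. Labelled db/m replicates 1 and 3 were above all other arrays, and replicate 2 lay among the labelled db/db arrays. The difference was 0.78 ± 0.35 (adjusted p = 0.298).

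The other light chains comprised 4 genes, of which Slc7a5 and Slc7a12 were tested. Slc7a12, a light chain of the kidney without a known heavy chain, had relative signals of 4.10, 2.78 and 2.65 in labelled db/m and 2.78, 2.27 and 2.81 in labelled db/db, with replicate 1 of labelled db/m alone above the rest. The difference was 0.56 ± 0.39 (adjusted p = 0.451), and 1.29 with the slide as a block, where it passed an unadjusted p under 0.05 (adjusted p = 0.483). Slc7a5, an exchanger of large neutral amino acids, differed by 0.52 (adjusted p = 0.356). Slc7a11, the cystine and glutamate exchanger of the antioxidant defence, was well above background on no array with any of its 4 probes, and Slc7a10 was so on 2 labelled db/m arrays and 1 labelled db/db array.

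Of the carriers of family 1 for glutamate and neutral amino acids, 3 of 4 were tested and all 3 had a negative difference, with a median of -0.18. Slc1a2, a glutamate carrier best known from astrocytes, had relative signals of -3.07, -2.61 and -2.82 in labelled db/m and -2.30, -2.18 and -2.60 in labelled db/db. The groups were apart by a narrow margin, and the difference was -0.47 ± 0.17 (adjusted p = 0.253). It did not pass an unadjusted p under 0.05 when replicate 1 or 3 of labelled db/m or replicate 1 or 2 of labelled db/db was left out. The neutral amino acid exchangers Slc1a4 and Slc1a5 differed by -0.18 and -0.04. The slide 1 pair gave -1.08 for Slc1a4, which passed an unadjusted p under 0.05 with the slide as a block. Slc1a3, another glutamate carrier, was not tested: its brightest probe gave -2.29, -3.77 and -2.69 in labelled db/m and -4.13, -4.37 and -4.10 in labelled db/db, and it was well above background on 2 and 1 of the 3 arrays.

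The peptide carriers Slc15a1 and Slc15a2 take up dipeptides and tripeptides with protons, and neither differed at an unadjusted p under 0.05. Slc15a1, the low-affinity carrier, had relative signals of -3.39, -2.86 and -3.46 in labelled db/m and -3.00, -3.65 and -2.89 in labelled db/db. The difference was -0.06 ± 0.25 (adjusted p = 0.912). The accession of that probe had no match in the RefSeq gene table. The Slc15a1 probe that carries a RefSeq accession was well above background on no array. Slc15a2, the high-affinity carrier, had 1.51, 1.18 and 1.04 against 1.81, 1.37 and 1.43, a difference of -0.29 ± 0.18 (adjusted p = 0.399), and 0.082 for the slide 1 pair. The groups overlapped for both genes. The other tested probes of Slc15a2 differed by 0.15 and -0.45.

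The carriers of taurine, creatine, glycine, betaine and GABA comprised 5 tested genes, of which 1 was lower at an unadjusted p under 0.05. Slc6a13, a carrier of GABA and taurine, had relative signals of 4.49, 4.78 and 4.38 in labelled db/m and 5.16, 5.06 and 4.85 in labelled db/db. The groups were just apart, and the difference was -0.47 ± 0.15 (adjusted p = 0.24). It did not pass an unadjusted p under 0.05 when replicate 1 or 3 of labelled db/m or replicate 1 or 2 of labelled db/db was left out, and the slide 1 pair gave -0.36.

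Slc6a6, the taurine carrier, had relative signals of 5.21, 4.89 and 4.80 in labelled db/m and 5.53, 5.37 and 5.06 in labelled db/db, a difference of -0.35 ± 0.17 (adjusted p = 0.319). The slide 1 pair turned the direction, at 0.15. Its exon junction probe gave 1.41, 1.13 and 0.94 against 1.77, 1.70 and 1.53, with groups apart and a difference of -0.50 that passed an unadjusted p under 0.05 (adjusted p = 0.24). The creatine carrier Slc6a8 and the glycine carrier Slc6a9 differed by -0.17 and 0.07.

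Slc6a12, the betaine carrier that tubule cells use against high salt, was chosen after its values were seen because it varied most between arrays of 1 group. It had relative signals of 2.66, -1.81 and 0.90 in labelled db/m and 0.45, -1.34 and 0.07 in labelled db/db. The difference was 0.86 ± 1.09 (adjusted p = 0.67). Its neighbour on chromosome 6, Slc6a13, showed no such range.

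The sodium-coupled neutral and proton-coupled carriers comprised 7 tested genes with a median difference of 0.04, and 1 of them, Slc38a9, was higher at an unadjusted p under 0.05. Slc38a9, the lysosomal carrier that reports arginine to the growth regulator mTORC1, had relative signals of 6.43, 6.32 and 6.41 in labelled db/m and 5.77, 5.57 and 6.24 in labelled db/db on its brightest probe. The difference was 0.53 ± 0.18 (adjusted p = 0.248), and 0.19 on slide 1. It did not pass an unadjusted p under 0.05 when replicate 1 or 3 of labelled db/m or replicate 1 or 2 of labelled db/db was left out, and the mean over its probes gave 0.09. That probe, at chr13:113495110-113495169 on the plus strand (mm9), was designed on a cDNA clone whose accession had no match in the RefSeq gene table. Its bases 9 to 24, shown here because they are shared, also stood in 6 other probes of the array.
Slc38a9, bases 9 to 24 of the brightest probe: AGTTCCAGGACAGCCA

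All 6 of those probes were tested, with a median relative signal of 9.06 and a median difference of 0.03. The probe of Slc38a9 that carries its RefSeq accession had -0.50, -0.16 and -0.43 in labelled db/m and -0.05, 0.09 and -0.10 in labelled db/db. It differed by -0.34, at an unadjusted p under 0.05 (adjusted p = 0.263) with groups apart, in the opposite direction. The 2 probes gave Slc38a9 no single direction.

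Slc38a1, a carrier of glutamine, had relative signals of -2.06, -0.90 and -1.17 in labelled db/m and -2.50, -2.69 and -1.29 in labelled db/db on its brightest probe, where the groups overlapped. The difference was 0.78 ± 0.44 (adjusted p = 0.37). A second probe gave -1.74, -2.57 and -1.61 in labelled db/m and -2.85, -2.88 and -2.68 in labelled db/db. Its groups were apart, with a difference of 0.83 that passed an unadjusted p under 0.05 (adjusted p = 0.24). The slide 1 pair gave 0.94 on the second probe and -0.77 on the brightest, which are opposite directions. With the slide as a block, the brightest probe was lower at an unadjusted p under 0.05. The neighbours Slc38a2 and Slc38a4 differed by 0.04 and -0.32. Slc36a1, Slc36a4 and Slc38a7 differed by -0.23, 0.04 and -0.30.

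Counted over all tested probes in place of the brightest, 14 members had a probe that was lower at an unadjusted p under 0.05 and 3 had one that was higher. Among all named genes, 13.6% had such a lower probe and 9.59% such a higher one. Of the 17 members with several tested probes, 5 had probes that differed in sign.

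**Figure D3:**
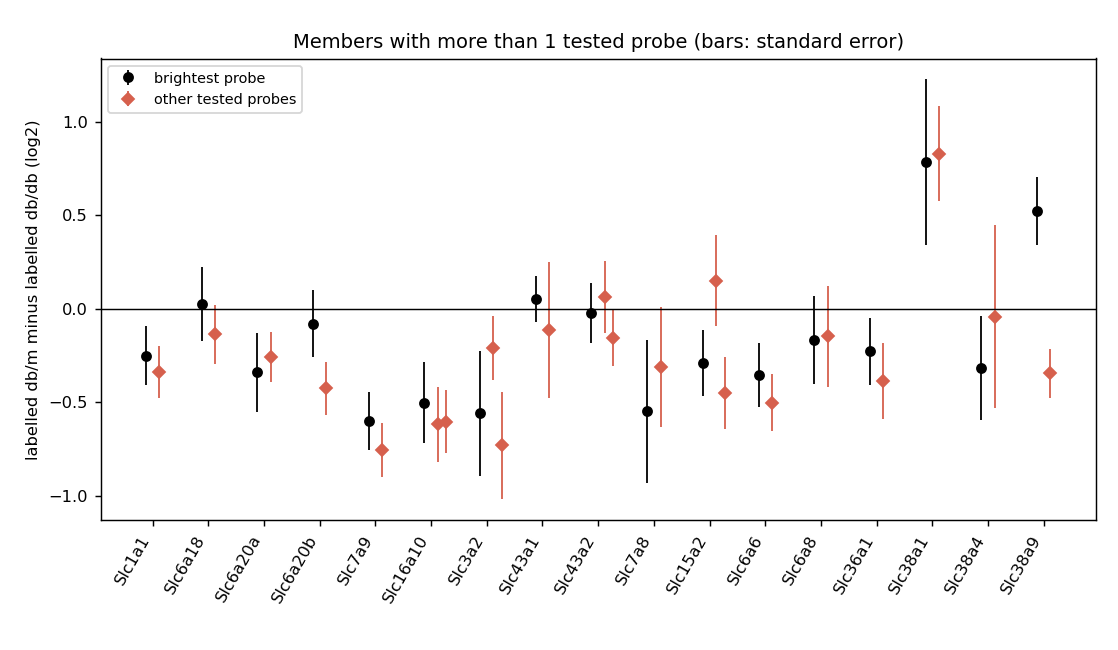
Difference of labelled db/m minus labelled db/db (log2, y axis) for each tested probe of the 17 members with more than 1, with bars of 1 standard error; circles are the brightest probe and diamonds the others. Both Slc7a9 probes and all 3 Slc16a10 probes lie below 0, while the 2 probes of Slc38a9 lie on opposite sides, at 0.53 and -0.34.

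The defining markers of the cortex were checked on the same arrays. The 9 markers of the early proximal tubule, among them Slc5a2, Lrp2 and Slc34a1, were all tested, and their mean relative signal was 6.31, 7.15 and 6.72 in labelled db/m and 6.95, 7.20 and 7.05 in labelled db/db. All 9 had a negative difference and 0 passed an unadjusted p under 0.05. The 3 medulla markers Slc14a2, Slc5a3 and Akr1b3 had a mean of 2.72, 0.45 and 2.50 in labelled db/m and 0.66, 0.42 and 0.65 in labelled db/db. All 3 had a positive difference and 1, Slc14a2, passed an unadjusted p under 0.05. Labelled db/m replicates 1 and 3 thus had high medulla and low early proximal tubule markers, and replicate 2 did not. Slc7a1 and Slc6a12 were higher on those 2 arrays than on replicate 2, and Slc7a8, Slc3a2 and Slc7a7 were lower. The 2 probes of Slc38a1 ran opposite ways, since the brightest was highest on replicate 2 and the second was lowest there among the labelled db/m arrays.

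Labelled db/m replicate 2 was the array whose tubule markers were like those of labelled db/db. With that array alone against the 3 labelled db/db arrays, the median difference of the members was -0.04. Slc6a19 differed by -0.61 there. No p-value is read from this setting, since a single labelled db/m array has no spread of its own. With each array centred on the mean of the early proximal tubule markers, all tested probes shifted to a median of 0.31 and the members to 0.17. On that scale Slc6a19 was lower at an unadjusted p under 0.05, at -0.68 (adjusted p = 0.293), while Slc7a9 differed by -0.26 (adjusted p = 0.657), Slc7a7 by -0.43 (adjusted p = 0.478) and Slc3a1 by -0.09 (adjusted p = 0.896). The part of tissue composition in these differences, that of Slc6a19 included, was not tested.

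**Figure D4:**
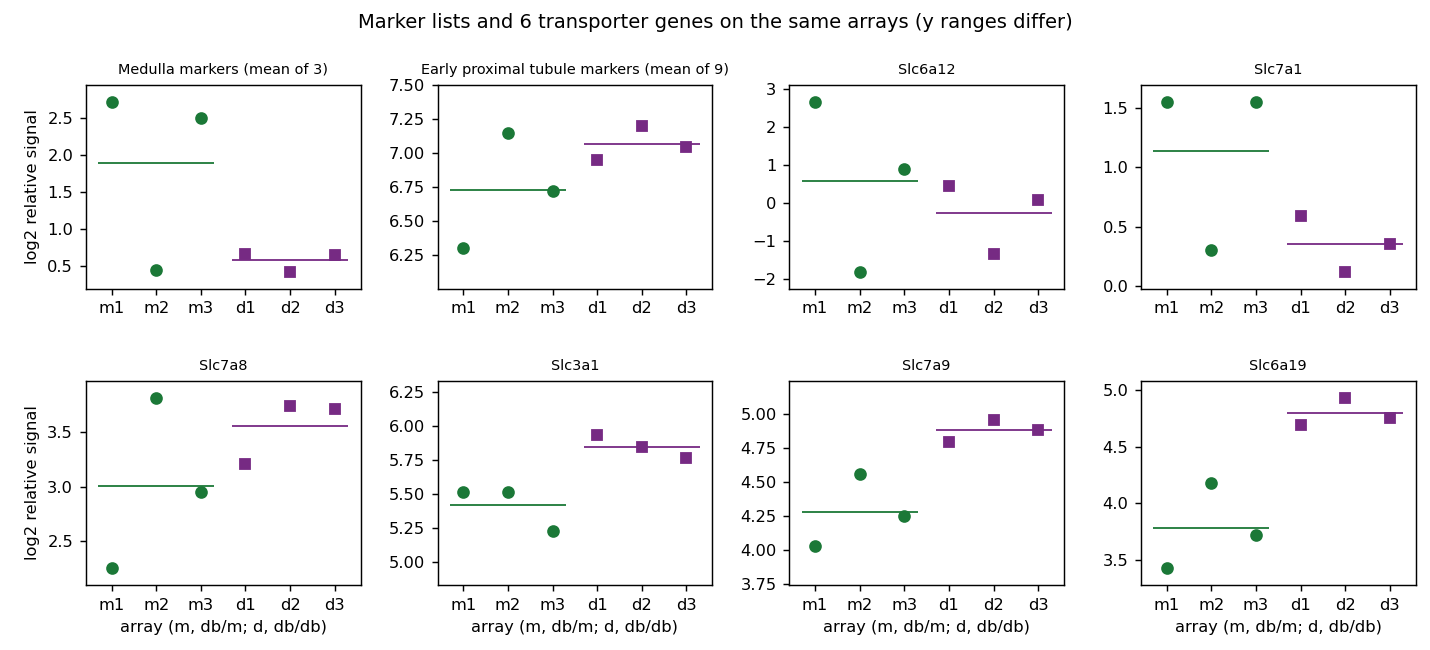
Relative signal (log2, y axis, ranges differ between panels) on the arrays of labelled db/m (circles, m) and labelled db/db (squares, d) for the mean of the medulla markers, the mean of the early proximal tubule markers and 6 transporter genes; lines are group means. Slc6a12 and Slc7a1 are higher on m1 and m3 than on m2, as the medulla markers are, and Slc6a19, Slc7a9 and Slc3a1 are below every labelled db/db array on all 3 labelled db/m arrays.

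**Figure D5:**
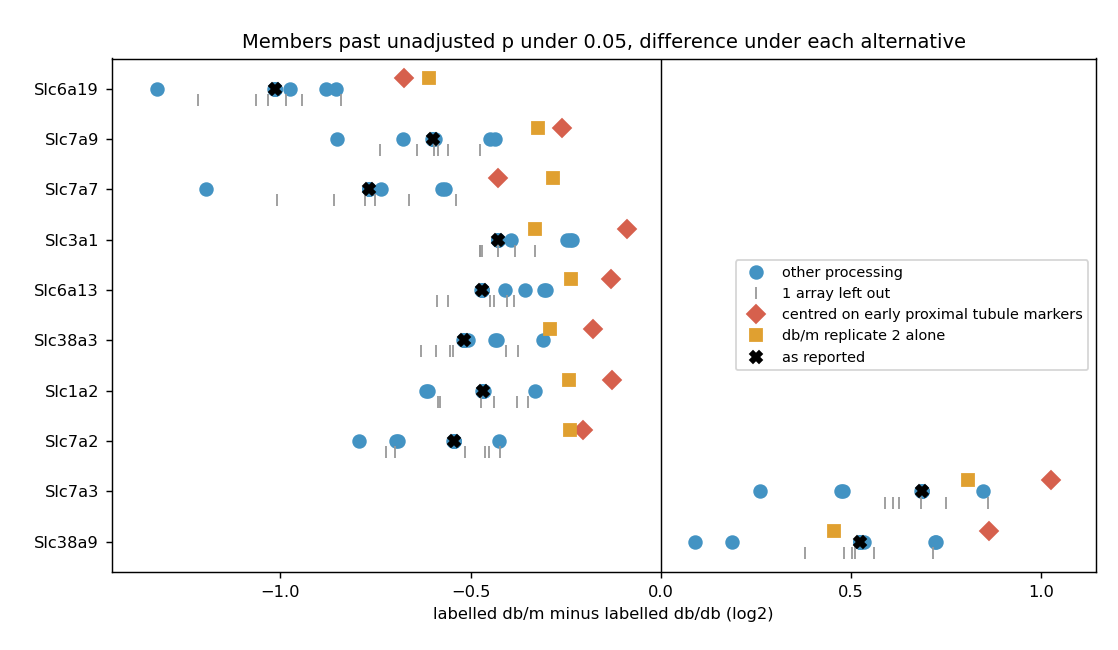
Difference of labelled db/m minus labelled db/db (log2, x axis) of the 10 members past an unadjusted p under 0.05, as reported (crosses) and under each alternative (other symbols). No point changes side of 0, and Slc6a19 stays at or below -0.61.

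Genes that act beside these carriers were read from lists. The brush border peptidases, which free amino acids from filtered peptides, comprised 11 tested genes. At an unadjusted p under 0.05, 3 were lower and 1 was higher, against 10.8% and 6.9% of all tested probes. Dpep1, a dipeptidase, had relative signals of 2.08, 3.57 and 3.05 in labelled db/m and 3.78, 4.22 and 4.02 in labelled db/db, with groups apart and a difference of -1.11 (adjusted p = 0.244). Xpnpep2, which removes amino acids before proline, differed by -0.67 (adjusted p = 0.24), and the angiotensin-converting enzyme gene Ace by -0.37 (adjusted p = 0.246). The higher one was Mme, the neutral endopeptidase neprilysin, at 0.50 (adjusted p = 0.24). The median of the list was -0.15.

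Of 25 other amino acid transporter genes and partner proteins, 18 were tested, with a median difference of -0.09. At an unadjusted p under 0.05, the glutamate carriers Slc1a6 and Slc1a7 and the carrier Slc38a8 were higher, at 0.53, 0.42 and 0.62. Slc15a3 and Slc43a3 were lower, at -0.42 and -0.55. The adjusted p of these genes was 0.248 to 0.266. Of all tested probes, 6.9% were higher and 10.8% lower. Slc1a6, Slc1a7 and Slc15a3 had relative signals between -4.19 and -3.17, about as low as those of Slc7a3, which was near the limit of the array. Cltrn, the partner that Slc6a19 needs to reach the brush border, had relative signals of 7.32, 7.90 and 7.53 in labelled db/m and 7.60, 7.92 and 7.70 in labelled db/db and differed by -0.15 (adjusted p = 0.639). None of the 14 amino acid response genes, among them Atf4 and Asns, passed an unadjusted p under 0.05, and their median difference was 0.07.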

How the data were processed

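Renal cortex RNA of 6 male mice, 3 labelled db/m and 3 labelled db/db, had been hybridised to one-colour Agilent arrays. For each array the authors deposited the intensity of every spot, background-subtracted by Agilent Feature Extraction 10.7.1.1 (per the labels) and not normalized between arrays. They also deposited a table of log2 values whose columns share a median of 6.11 and whose normalization is not given in the sources used here, and it served as an alternative.

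Flagged outlier spots were dropped and the remaining spots of a probe averaged. Log2 intensities were expressed relative to the 75th percentile of their array. A probe entered the test when its signal was well above background on every array of at least 1 group, in R 4.3.3 with lmFit and eBayes of limma 3.58.1. On simulated data of 29890 probes, an unadjusted p under 0.05 was reached by 91% of probes changed by 1 on the log2 scale and by 5.07% of unchanged ones. The simulated probes varied independently, with nothing shared by slide or tissue piece. These percentages are therefore not the error rates of this series. The number of arrays limits the precision.

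The members and lists were chosen with earlier results of these data known. Full values were given for members with an unadjusted p under 0.05 and for a fixed set of 17 tubule carriers. A second probe was named where it had the opposite sign at an unadjusted p under 0.05, or where its groups did not overlap and those of the brightest did. The further probes of Slc7a9, Slc6a18 and Slc15a2 and the genes Slc6a12, Slc7a1 and Cltrn were named after their values were seen, and the remaining members were given by their differences. The alternatives were quantile normalization, median centring, normexp with an offset of 50, other filters, the methods' t-test (the equal-variance form of one-way ANOVA), another variance model, the slide as a block, the replicate number as a block, the deposited table, the mean over probes and each array left out, with 2 more that were chosen after seeing the data. The methods of the study name ANOVA in general and give no separate test for the arrays. Same-numbered arrays deviated together with correlations of 0.354, 0.148 and 0.0461, so the numbers were not taken to pair the mice. Slides came from the file headers. The file of labelled db/m replicate 1 held values of 3 significant digits and 71 other gene names, and names came from another file. Promoters came from RefSeq.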

Additional observations from a re-analysis of the deposited data

How the results depend on the processing

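The median difference of the members stayed between -0.25 and -0.11 under 17 alternatives. Centring on early proximal tubule markers, chosen after seeing the data, turned it to 0.17 beside 0.31 for all probes, with 5 members higher and 1 lower. Labelled db/m replicate 2 as the only labelled db/m array, also chosen after seeing the data, gave a median of -0.04. Against 2 higher and 8 lower, the methods' t-test gave 1 and 4 with 0 after adjustment, and the filter on all 6 arrays, which did not test Slc7a3, and normexp, where Slc7a3 lost its call, each gave 1 higher. The same replicate numbers were not taken to pair the mice, and the replicate block gave 4 higher and 14 lower, with 0 after adjustment. Leaving out 1 array gave 1 to 5 higher, 3 to 13 lower and 0 to 2 at an adjusted p under 0.05. Of those 2, Slc1a3 entered only through labelled db/m, the group in which it was higher. Shares over all probes were not counted for the alternatives. Slc6a19 kept its direction under every alternative. Leaving aside the single labelled db/m array, where no p-value is read, Slc6a19 also kept its call under every alternative. Slc7a9 kept its call under all of these but the centring on tubule markers. Some members that had not passed an unadjusted p under 0.05 changed sign, and the cause was not tested. Leaving out 1 array gave Slc15a1 from -0.291 to 0.0883, Slc6a18 from -0.136 to 0.225 and Slc6a20b from -0.234 to 0.0017. The slide block gave Slc15a2 0.082, Slc6a20a 0.30, Slc6a6 0.15 and Slc38a1 -0.77, the last past an unadjusted p under 0.05. Slc6a18 was -0.0556 as the mean over probes, and Slc6a20b was 0.027 in the deposited table and 0.025 after quantile normalization. Centring on tubule markers gave Slc15a1 0.28, Slc15a2 0.0501, Slc1a1 0.0891 and Slc6a20b 0.26. The single labelled db/m array gave Slc15a1 0.32, Slc1a1 0.0187, Slc3a2 0.13, Slc6a20b 0.23, Slc7a13 -0.15 and Slc7a8 0.26; it was assumed to vary like the other group. Probes near background, such as those of Slc7a3 and Slc7a11, limit what can be read from dim members.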

Other observations

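Of the 7 markers of the last segment of the proximal tubule, Cyp7b1 (difference 0.75, adjusted p = 0.245) and Atp11a (0.59, adjusted p = 0.267) were higher in labelled db/m at an unadjusted p under 0.05 in limma and 0 were lower. Of 6 markers of the thick limb and distal tubule, the sodium chloride carrier Slc12a3 was lower at an unadjusted p under 0.05, with relative signals of 2.40, 2.67 and 2.16 in labelled db/m and 3.25, 3.42 and 3.29 in labelled db/db (difference -0.91, adjusted p = 0.24). Of 8 tested immune cell markers, Itgam, Ptprc, Adgre1 and Lyz2 were higher and Cd74 was lower at an unadjusted p under 0.05. Among 4 tested androgen-responsive kidney genes, Gusb was lower at an unadjusted p under 0.05, at -0.33 (adjusted p = 0.24). For comparison with all these lists, 6.9% of all tested probes were higher and 10.8% lower at an unadjusted p under 0.05.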
